A study of Homo sapiens with 8 samples.

Results

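The genes described here lie on both sides of the centromere of chromosome 9. Members were the protein-coding genes of chromosome 9 whose start lies in an interval from just before TESK1 (first base 35605305) to 72 Mb (GENCODE release 29, GRCh38), without TLN1, and that averaged at least 1 CPM over the 8 libraries. CPM, used throughout for levels, is a gene's count per 1000000 counts of its library, with library sizes scaled by TMM factors. Of 58206 rows in the count table, 458 lay in this interval and 86 of those were protein-coding, of which 18 had no count in any library, 24 had counts but stayed below 1 CPM and 44 reached it. With TLN1 set aside there were 43 members, 32 on the short arm (9p, from TESK1 to CNTNAP3B) and 11 on the long arm (9q, from ZNG1E to C9orf85). The interval was chosen because these genes had higher counts in one group than in the other, so every value of that contrast below is a description and carries no test. All 43 members passed the expression filter of the fit across all genes.

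RNA was sequenced from Alexander1, an established epithelial line from a human hepatocellular carcinoma, cultured in serum-containing medium. The 4 libraries labelled wt (Axin1 -), called parental here, came from the line as obtained, whose Axin1 lacks the region that binds the kinase GSK3 and whose Wnt pathway is constitutively active. The 4 libraries labelled Axin1 +, called restored here, came from a stable derivative that carries full-length Axin1 from a retroviral plasmid and was selected as clones in hygromycin B. The labels do not state how many clones were used, and the parental cells are not stated to have received an empty vector, so Axin1, transduction, drug selection and clonal origin cannot be told apart in this comparison. Nothing in the labels says that the 4 libraries of a group came from separate cultures, so the spread between them may be technical.

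The line dividing the short and long arms of chromosome 9 is flanked by one of the most duplicated stretches of the human genome. Gene families such as ZNG1 (formerly CBWD, zinc-handling GTPases) and CNTNAP3 (contactin-associated membrane proteins of the neurexin family) have near-identical copies on both arms, and few unique genes lie between them. Beyond the duplications, 9p13 and 9q21 hold ordinary housekeeping and tissue genes with no common function, among them a clathrin light chain, an RNA exosome subunit, several mitochondrial enzymes and a hyaluronan-degrading surface protein.

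Of the 43 members, 35 had an entry in the RefSeq promoter table (GRCh38.p14), which gives 250 bases before to 50 bases after the annotated start. The other 8 had none. The promoters of 5 members are shown. The first pair are CA9, which had a lower mean in the restored libraries with overlapping groups, and ALDH1B1, which was 3.43-fold higher; capitals mark the match to ACGTG, the core of the hypoxia response element, read on either strand. CA9 lies at chr9:35673678-35673977 on the plus strand, and ALDH1B1 at chr9:38392452-38392751 on the plus strand.
CA9: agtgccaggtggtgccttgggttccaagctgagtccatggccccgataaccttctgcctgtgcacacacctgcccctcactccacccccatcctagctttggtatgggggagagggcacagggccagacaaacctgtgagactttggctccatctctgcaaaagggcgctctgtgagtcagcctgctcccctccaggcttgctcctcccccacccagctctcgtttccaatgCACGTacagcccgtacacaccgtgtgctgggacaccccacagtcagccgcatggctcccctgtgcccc
ALDH1B1: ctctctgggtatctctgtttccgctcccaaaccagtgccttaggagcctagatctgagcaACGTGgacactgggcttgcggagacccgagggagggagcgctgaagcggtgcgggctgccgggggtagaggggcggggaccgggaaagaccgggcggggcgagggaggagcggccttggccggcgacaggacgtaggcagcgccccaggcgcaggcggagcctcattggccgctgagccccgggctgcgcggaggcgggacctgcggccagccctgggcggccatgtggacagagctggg
The other three belong to the ZNG1 copies, 1 on the short arm and 2 on the long arm, and show how alike these copies are around their starts. Capitals mark TGACGTCA, the palindromic cAMP response element. ZNG1F lies at chr9:41189268-41189567 on the minus strand, ZNG1E at chr9:65675678-65675977 and ZNG1C at chr9:68241733-68242032, both on the plus strand.
ZNG1F: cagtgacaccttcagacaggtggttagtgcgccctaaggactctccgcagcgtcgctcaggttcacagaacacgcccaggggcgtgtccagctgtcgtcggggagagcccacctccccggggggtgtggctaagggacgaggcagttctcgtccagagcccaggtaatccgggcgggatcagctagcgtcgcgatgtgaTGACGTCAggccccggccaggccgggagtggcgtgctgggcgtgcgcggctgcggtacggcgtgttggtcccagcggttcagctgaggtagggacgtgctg
ZNG1E: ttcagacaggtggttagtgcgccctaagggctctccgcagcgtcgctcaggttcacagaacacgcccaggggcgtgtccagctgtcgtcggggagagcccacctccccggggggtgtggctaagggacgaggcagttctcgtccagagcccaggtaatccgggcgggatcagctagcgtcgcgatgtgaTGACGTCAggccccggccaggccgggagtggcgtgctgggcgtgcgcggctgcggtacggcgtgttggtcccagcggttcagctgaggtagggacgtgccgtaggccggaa
ZNG1C: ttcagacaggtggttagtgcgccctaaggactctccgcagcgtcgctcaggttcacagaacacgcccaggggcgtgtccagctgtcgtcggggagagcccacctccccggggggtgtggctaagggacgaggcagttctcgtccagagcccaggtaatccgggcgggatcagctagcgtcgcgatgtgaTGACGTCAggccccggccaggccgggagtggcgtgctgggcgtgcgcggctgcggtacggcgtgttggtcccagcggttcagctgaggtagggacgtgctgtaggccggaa
ZNG1E and ZNG1C were identical at 298 of 300 bases (99.3%). ZNG1F and ZNG1C were identical at 290 positions with 0 mismatches, and ZNG1F and ZNG1E at 288 with 2 mismatches. Both alignments also held 20 gap positions, and counted with these the shares were 93.5% and 92.9%. The gaps lie at the ends, because the windows are offset. TGACGTCA begins 51 bases before the annotated start in ZNG1F and 61 before it in ZNG1E and ZNG1C. The ACGTG match of CA9 begins 18 bases before the start and that of ALDH1B1 190 bases before it.

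Across the 35 member promoters the GC box GGGCGG was found in 30 (85.7%), against 44.6% of all 27305 promoters of the same length, searching both strands. Median GC content was 67.7% in member promoters and 58.3% in all promoters. The set of all promoters was not filtered by expression or gene type, whereas members are protein-coding and averaged at least 1 CPM. The shares in this paragraph thus compare unlike sets, and the part of that difference was not tested. ACGTG occurred in 12 of 35 (34.3%, against 21.6% of all), 8 of 27 on the short arm and 4 of 8 on the long arm. The letters ACGT are common to it and to TGACGTCA, but TGACGTCA holds no ACGTG on either strand. TGACGTCA was found in the 3 ZNG1 copies (8.57%, against 1.98%). CCAAT was found in 12 (34.3%, against 35.7%), TATAAA in CCDC107 alone (2.86%, against 11.95%) and CTTTGA, the core bound by TCF/LEF factors, in 4 (GBA2, TMEM8B, ABHD17B and C9orf85; 11.4%, against 13.1%). A match is a string of letters in this window and not a site.

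Library totals ran from 11232951 to 15263761 counts in the parental group and from 12372436 to 26400782 in the restored group. AXIN1, the targeted gene, did not mark the labels: it was at 55.1, 52.7, 47.3 and 54.1 CPM in parental libraries 1 to 4 and at 47.5, 48.0, 48.2 and 37.6 CPM in restored libraries 1 to 4 (edgeR quasi-likelihood test, adjusted p = 0.267). The restored group is therefore the group labelled so. On principal components of log2 CPM, the first (55.9% of the variance) placed parental libraries between -46.7 and -42.6 and restored libraries 2 to 4 between 48.7 and 56.8, with restored library 1 at 22.2. The second (20.9%) placed parental library 1 at 61.5 and the other 7 libraries between -30.3 and 25.0. Summed CPM of the 10 hepatocyte markers was between 23471 and 27322 in parental and between 18145 and 21624 in restored libraries. SERPINA1 took most of that sum, at a mean of 16102 CPM in parental and 10339 CPM in restored libraries, and the markers did not move together. SERPINA1 and TF were lower in every restored library than in any parental one, and FGB was higher (means 767 and 3169 CPM). ALB, at means of 152 and 434 CPM, and TTR, at 3.63 and 12.5 CPM, had overlapping groups. The 3 leukocyte markers summed to at most 0.178 CPM, with CD3E at 0. Of the endothelial markers PECAM1 alone was present, at a mean of 5.17 CPM in parental and 48.1 CPM in restored libraries, with VWF and CDH5 at 0.247 CPM or less in every library. The 3 fibroblast markers summed to between 2.64 and 3.14 CPM in parental and between 1.13 and 4.37 CPM in restored libraries, with PDGFRB at 1.68 and 0.220 CPM (restored lower, without overlap), COL1A1 at 1.10 and 1.86 CPM (overlapping) and DCN at 0.0824 CPM or less in every library. The part of these markers in the member values was not tested.

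The members together took between 0.123% and 0.142% of all counts in parental libraries and between 0.210% and 0.267% in restored libraries. Their median log2 fold change, restored over parental, was 0.93 (1.90-fold, interquartile range 0.30 to 1.15), and 37 of 43 were above 0. Over all 14289 genes tested the median was 0.0026, with an interquartile range from -0.30 to 0.32. The name given to this set, an upward shift around the centromere, described only its short-arm members. The 32 short-arm members had a median of 1.05 (2.08-fold), and 31 of them were above 0. The 11 long-arm members had a median of 0.13 (1.09-fold), with 6 above and 5 below 0 and the highest at 0.40. In bulk RNA a higher level per cell and a higher share of cells with the transcript cannot be told apart.

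With edgeR's quasi-likelihood test and an adjusted p under 0.05 over all genes, 28 members were higher in the restored libraries, beside 10.4% of all genes tested, and 0 were lower, beside 8.75%. All 28 lay on the short arm. The 4 short-arm members that did not pass were CA9, NPR2, TOMM5 and ZNG1F, named here after their values were seen. All 4 restored values exceeded all 4 parental values in 27 members, beside 12.7% of genes tested, and lay below them in 0 members, beside 11.2%. These counts use the contrast by which the interval was found and describe it without supporting it. Every long-arm member had overlapping groups.

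**Figure D1:**
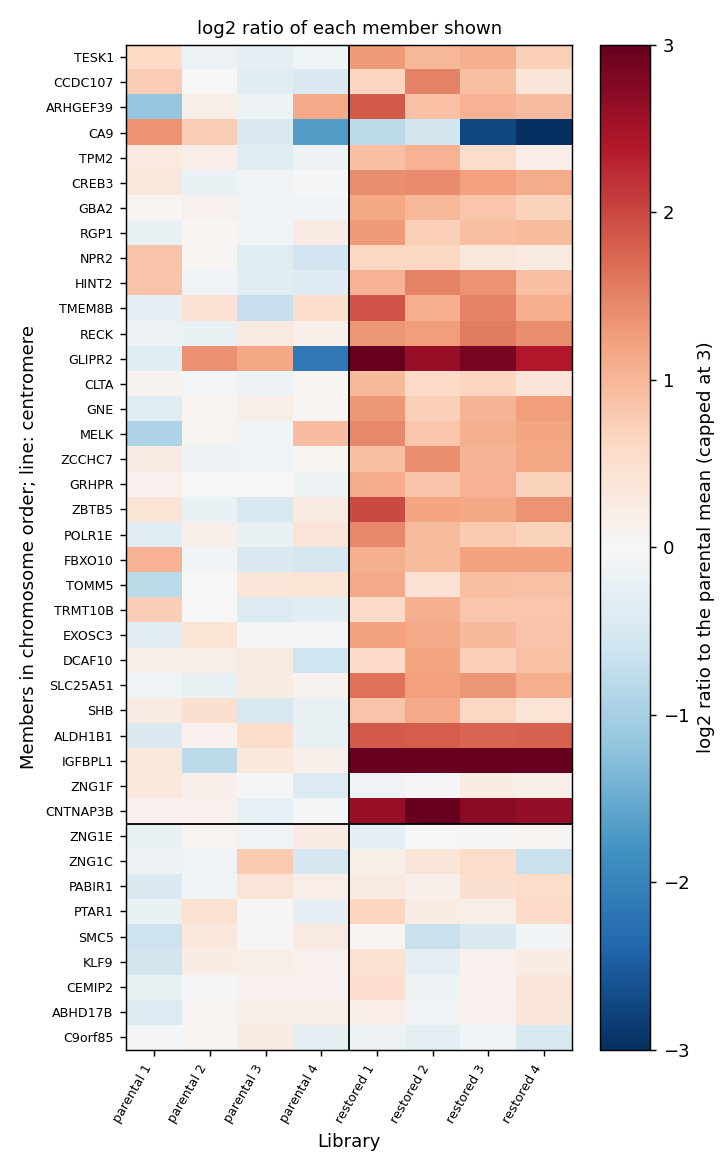
log2 ratio of 40 members (rows, in chromosome order) in each library (columns), for restored libraries against the parental mean and for parental libraries each against the other 3; colour is capped at 3, and values of genes near 0 counts depend on the prior count of 2. Above the centromere line 30 of the 31 short-arm members shown have a positive log2 fold change, and below it the 9 long-arm members shown are mixed.

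The short-arm shift was present in each restored library. These per-library ratios are the contrast by which the interval was chosen, so they describe it without supporting it. Median log2 ratios of the 32 short-arm members to the parental mean were 1.25, 1.05, 1.03 and 0.91 in restored libraries 1 to 4. Parental libraries, each set against the other 3, had medians of 0.14, 0.07, -0.12 and -0.06. In restored libraries 1 to 4, 29, 29, 29 and 27 of the 32 lay above the highest parental value, where 26.9%, 27.3%, 27.7% and 30.8% of all genes tested did. The highest of the 4 restored values was in library 1 for 18 short-arm members, in library 2 for 11, in library 3 for 2 and in library 4 for 1; over all genes tested those shares were 31.0%, 27.8%, 17.5% and 23.6%. Without restored library 1 the short-arm median was 0.95, and without parental library 1 it was 1.02.

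Long-arm members did not move as a block. Their medians in restored libraries 1 to 4 were 0.18, -0.15, 0.12 and 0.08. Parental library 1 stood below its group, at -0.41 against 0.08, 0.16 and 0.17 in parental libraries 2 to 4. It held the lowest parental value in 8 of the 11 long-arm members (72.7%), in 10 of the 15 expressed genes between 72 and 80 Mb, and in 38.5% of all genes tested. The long-arm median of 0.13 became 0.03 without parental library 1, 0.03 without restored library 1 and -0.04 without restored library 3.

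**Figure D2:**
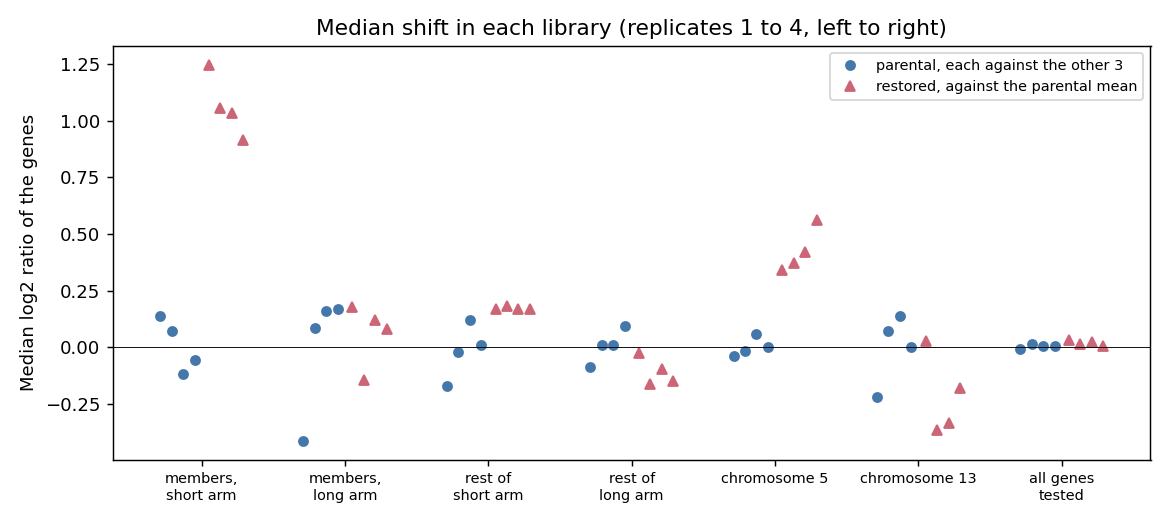
Median log2 ratio (vertical axis) over each gene set (horizontal axis) in each library, with circles for parental libraries, each against the other 3, and triangles for restored libraries against the parental mean, replicates 1 to 4 from left to right. Short-arm members sit between 0.91 and 1.25 in the restored libraries, and parental library 1 sits at -0.41 for the long-arm members.

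Among genes of the cytoskeleton, adhesion and membrane traffic, all 10 short-arm members were higher in the restored group, with a median log2 fold change of 1.05. In 9 of them the groups did not overlap, beside 12.7% of genes tested. Of all 32 short-arm members, 28 passed the threshold as higher and 27 were higher without overlap. The counts of this and the following groups describe parts of that block and are no result about their functions. TPM2 (chr9:35681992-35690121, minus strand), which encodes beta-tropomyosin of actin filaments, was at 310, 293, 222 and 244 CPM in parental libraries and at 496, 547, 390 and 305 CPM in restored libraries 1 to 4. Its log2 fold change was 0.70 (SE 0.19), and restored library 4 lay just under parental library 1. CLTA (chr9:36190856-36304781, plus strand) encodes clathrin light chain A of coated vesicles. It was at 159, 148, 139 and 155 CPM in parental and at 295, 225, 234 and 197 CPM in restored libraries, without overlap, a log2 fold change of 0.66 (SE 0.14). These were the smallest differences of the 10.

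TESK1 (chr9:35605305-35610041, plus strand), a kinase that phosphorylates the actin-severing protein cofilin, is the first member. Its values were 34.2, 23.0, 21.8 and 23.4 CPM in parental and 61.4, 50.5, 52.5 and 41.5 CPM in restored libraries (log2 fold change 1.01, SE 0.18). The parental libraries were close together apart from library 1, which was high. GLIPR2 (chr9:36136536-36163913, plus strand), a Golgi-associated protein, was among the members nearest the 1 CPM minimum, at 0.178, 0.608, 0.534 and 0 CPM in parental and 2.79, 2.06, 2.46 and 1.75 CPM in restored libraries. Its means were 0.330 ± 0.289 and 2.27 ± 0.455 CPM (SD, n = 4), a log2 fold change of 2.75 (SE 0.57). Among the remaining short-arm members of the group, ARHGEF39 (a guanine nucleotide exchange factor), RGP1 (which acts in Golgi traffic), TMEM8B, RECK (a membrane-anchored inhibitor of matrix metalloproteinases) and SHB (an SH2 adaptor), had log2 fold changes of 1.10, 0.98, 1.47, 1.43 and 0.75. CNTNAP3B, which also counts in this group and had its highest log2 fold change, is described with the duplicated families.

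On the long arm the same group had 4 members with a median of 0.19, none past the threshold. CEMIP2 (chr9:71683366-71816690, minus strand), a cell-surface protein that degrades hyaluronan, was at 284, 312, 342 and 340 CPM in parental and at 450, 288, 349 and 416 CPM in restored libraries. The groups overlapped, with restored library 2 among the parental values. ABHD17B, a depalmitoylase, was at 10.2, 13.2, 13.8 and 13.9 CPM in parental and 14.5, 11.7, 13.9 and 16.3 CPM in restored libraries, with overlapping groups (log2 fold change 0.14, SE 0.17). The log2 fold change of PTAR1, related to prenyltransferase subunits, was 0.40.

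Metabolic and mitochondrial genes had 10 short-arm members with a median log2 fold change of 0.93. Of these, 7 passed the threshold as higher, beside 10.4% of all genes tested. ALDH1B1 (chr9:38392664-38398661, plus strand), a mitochondrial aldehyde dehydrogenase whose promoter is printed above, was at 31.2, 42.1, 51.8 and 35.2 CPM in parental and at 142, 139, 133 and 135 CPM in restored libraries. The means were 40.1 ± 8.99 and 137 ± 4.05 CPM (SD, n = 4), and the log2 fold change was 1.78 (SE 0.16). The restored libraries were closer to each other than the parental ones. GRHPR (chr9:37422666-37436990, plus strand), the liver enzyme that reduces glyoxylate and whose loss causes primary hyperoxaluria, was at 48.1, 44.6, 45.1 and 41.3 CPM in parental and at 96.8, 81.6, 91.6 and 72.6 CPM in restored libraries (log2 fold change 0.94, SE 0.12). GBA2 (chr9:35736866-35749228, minus strand), the non-lysosomal glucosylceramidase, was at 42.1, 43.5, 38.8 and 39.2 CPM in parental and at 91.0, 81.9, 72.9 and 65.0 CPM in restored libraries (log2 fold change 0.93, SE 0.13). For both genes the lowest restored value, in library 4, was well above the highest parental value. GNE (sialic acid synthesis), HINT2 (a mitochondrial nucleotide hydrolase) and SLC25A51 (the mitochondrial NAD carrier) had log2 fold changes of 1.10, 1.16 and 1.35.

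CCDC107, next to TESK1 at the short-arm end, was at 28.3, 19.1, 16.1 and 15.3 CPM in parental and at 30.1, 54.1, 35.9 and 24.5 CPM in restored libraries. The groups overlapped at parental library 1 and restored library 4 (log2 fold change 0.87, SE 0.26). TOMM5, a subunit of the outer-membrane protein translocase, had groups that did not overlap but did not pass the threshold (1.87 ± 0.521 and 3.38 ± 0.679 CPM, SD, n = 4). NPR2, the receptor for C-type natriuretic peptide, was at 6.13, 3.99, 3.20 and 2.86 CPM in parental and 5.98, 6.02, 4.97 and 4.72 CPM in restored libraries, with overlapping groups.

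CA9 (chr9:35673856-35681159, plus strand), a membrane carbonic anhydrase known as a target of the hypoxia-inducible factors, had the lowest log2 fold change of all members, -1.66 (SE 0.60). It was at 33.02, 24.0, 12.99 and 6.72 CPM in parental and at 9.34, 11.04, 2.36 and 1.95 CPM in restored libraries. Both groups were widely spread, 19.2 ± 11.7 and 6.17 ± 4.70 CPM (SD, n = 4), and they overlapped. Its neighbours on either side in the member order, ARHGEF39 and TPM2, were both past the threshold as higher. C9orf85, the last member on the long arm, had a log2 fold change of -0.25. It was at 8.43, 8.92, 9.78 and 7.36 CPM in parental and at 7.77, 7.09, 8.02 and 6.16 CPM in restored libraries, with overlapping groups.

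**Figure D3:**
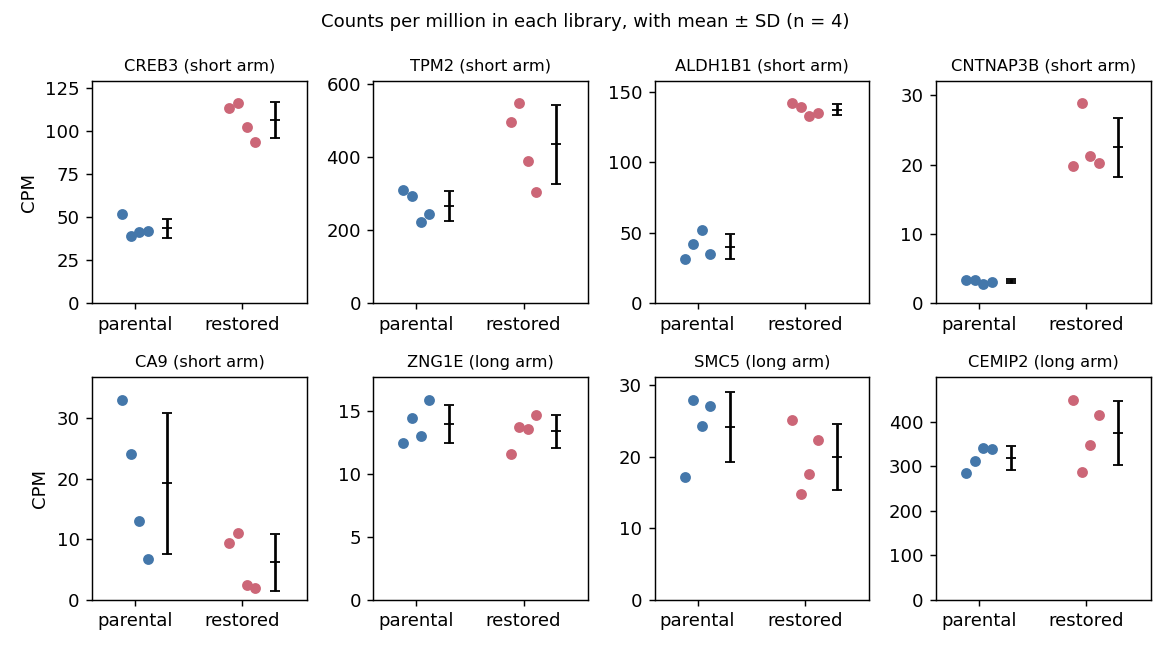
CPM of 8 members (vertical axis from 0, one panel per gene) in the parental and restored libraries, with points for replicates 1 to 4 from left to right and bars for the mean ± SD (n = 4). CREB3, ALDH1B1 and CNTNAP3B separate the groups fully, TPM2 nearly so, CA9 has a lower mean in the restored libraries with overlap, and the long-arm genes ZNG1E, SMC5 and CEMIP2 overlap.

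All 6 short-arm members of the transcription and RNA group passed the threshold as higher, beside 10.4% of all genes tested. Their median log2 fold change was 1.09, and none had overlapping groups, beside 12.7% of genes tested that were higher without overlap. CREB3 (chr9:35732335-35737004, plus strand), a transcription factor held in the endoplasmic reticulum membrane until cleaved, was at 51.6, 39.1, 41.2 and 42.2 CPM in parental and at 114, 116, 102 and 93.8 CPM in restored libraries (log2 fold change 1.29, SE 0.13). POLR1E (chr9:37485935-37503697, plus strand), a subunit of RNA polymerase I, was at 12.7, 16.5, 13.8 and 18.7 CPM in parental and at 41.7, 29.6, 26.5 and 24.6 CPM in restored libraries (log2 fold change 0.99, SE 0.20). EXOSC3 (chr9:37766978-37801437, minus strand), a subunit of the RNA exosome that trims and degrades RNA, was at 10.7, 15.8, 12.5 and 12.3 CPM in parental and at 29.5, 28.2, 25.1 and 23.2 CPM in restored libraries (log2 fold change 1.04, SE 0.16). In all 3 genes the lowest restored value was well above the highest parental one. ZCCHC7 (a cofactor of exosome-linked polyadenylation), ZBTB5 (a zinc finger factor) and TRMT10B (a tRNA methyltransferase) had log2 fold changes of 1.13, 1.45 and 0.80. The long-arm member KLF9, a zinc finger factor that responds to glucocorticoid and thyroid hormone, had a log2 fold change of 0.15 with overlapping groups.

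In the group of ubiquitin ligase parts, kinases, phosphatase regulators and cell division genes, all 4 short-arm members passed as higher, beside 10.4% of all genes tested. Their median log2 fold change was 1.07. DCAF10 (chr9:37800502-37867666, plus strand), a substrate receptor of CUL4 ubiquitin ligases, was at 24.9, 25.1, 26.6 and 16.9 CPM in parental and at 34.3, 52.2, 37.98 and 42.4 CPM in restored libraries (log2 fold change 0.84, SE 0.18). MELK (chr9:36572862-36677683, plus strand), a kinase expressed in dividing cells, was at 11.98, 20.3, 18.5 and 31.3 CPM in parental and at 52.7, 34.5, 40.7 and 44.3 CPM in restored libraries (log2 fold change 1.07, SE 0.25). The groups did not overlap for either gene, and the parental libraries of MELK were the more widely spread. FBXO10, an F-box protein, had a log2 fold change of 1.07. On the long arm SMC5 (chr9:70258962-70354888, plus strand), of the SMC5/6 complex that maintains chromosomes, was at 17.1, 28.0, 24.3 and 27.2 CPM in parental and at 25.2, 14.8, 17.6 and 22.4 CPM in restored libraries, with overlap (log2 fold change -0.27, SE 0.21). PABIR1, an inhibitor of protein phosphatase 2A, was at 0.36.

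Members from duplicated families did not share one pattern. CNTNAP3B (chr9:41890314-42129510, minus strand), the short-arm member nearest the centromere, was at 3.37, 3.38, 2.76 and 3.07 CPM in parental and at 19.8, 28.8, 21.2 and 20.2 CPM in restored libraries (log2 fold change 2.83, SE 0.19). Each restored value was far above all parental values. ZNG1F (chr9:41131306-41199261, minus strand), its nearest member neighbour, was at 4.97, 4.53, 4.09 and 3.36 CPM in parental and at 3.90, 4.12, 4.92 and 4.72 CPM in restored libraries, with overlap (log2 fold change 0.06, SE 0.21). The long-arm copy ZNG1E (chr9:65668805-65734041, plus strand) was at 12.5, 14.5, 13.1 and 15.9 CPM in parental and at 11.6, 13.8, 13.6 and 14.7 CPM in restored libraries (log2 fold change -0.06, SE 0.15). ZNG1C had a log2 fold change of 0.13. The ZNG1 copies thus differed between groups by less than the spread of their libraries on both arms.

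Of the 50-base stretches in their annotated transcripts, 86.2% in ZNG1F, 84.4% in ZNG1C and 71.1% in ZNG1E also occurred in transcripts of other genes, and 42.7% in CNTNAP3B, mostly in CNTNAP3. How the counting assigned reads shared by such copies is not given in the sources used here, so the values of these 4 genes are uncertain. SHB (47.3%) and FBXO10 (46.5%) shared theirs with the unnamed genes AL138752.2 and AL513165.2, respectively. Neither unnamed gene had a count in any library. Smaller shares were found in HINT2 (17.1%), TOMM5 (16.9%) and SLC25A51 (15.6%), among others. Without the duplicated families the remaining 39 members had a median of 0.94. Exon overlaps were searched only with genes that averaged at least 1 CPM. Such an overlap, always on the opposite strand, was found in 9 members, all on the short arm. CCDC107 overlapped ARHGEF39 over 1111 bases, ARHGEF39 overlapped CA9 over 643 and HINT2 overlapped TMEM8B over 874. CREB3 overlapped GBA2 over 139 and TLN1 over 61, and EXOSC3 overlapped DCAF10 over 96. The sources used here do not say if counting used strand, so reads of such partners may have been exchanged.

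Several short-arm genes were close to silent in the parental libraries. IGFBPL1 (chr9:38408994-38424447, minus strand), related to the insulin-like growth factor binding proteins, had at most 1 count in any parental library and was at 3.83, 2.39, 2.21 and 3.51 CPM in restored libraries. Against 3 counts per parental library (a mean of 0.238 CPM) it was at least 12.6-fold higher. The members just above the 1 CPM minimum were GLIPR2 (mean over all libraries 1.30 CPM) and IGFBPL1 (1.52 CPM), and the genes just below it were ANKRD18A (0.811 CPM) and ZNF658 (0.780 CPM). ANKRD18A had at most 2 counts in a parental library and averaged 1.58 ± 0.917 CPM in restored libraries (SD, n = 4), at least 6.64-fold higher. CNTNAP3, the partner of CNTNAP3B and also below the minimum, had at most 3 counts in a parental library and was at least 5.50-fold higher, and it was added after its values were seen. ZNF658, on the long arm, averaged 0.722 CPM in parental and 0.838 CPM in restored libraries. A gene enters the membership through the group in which it is high, so these low genes are not a sample of all silent genes there. Placing IGFBPL1 at its bound left the short-arm median at 1.05.

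Read in chromosome order, the higher values began before the interval and did not continue among the long-arm members. Past IGFBPL1 on the short arm, ZNG1F was at 0.06 and CNTNAP3B, whose value is uncertain, at 2.83. No member lies between CNTNAP3B and ZNG1E, so these values do not place the end of the higher stretch. In windows of 15 neighbouring expressed protein-coding genes, the median log2 fold change was 0.22 for the window from ACO1 to NOL6 and 0.21 for that from UBE2R2 to IL11RA. It was 0.80 from IL11RA to TLN1 and 1.13 from CREB3 to ZBTB5, and 1.04 from MELK to ZNG1F. From EXOSC3 to SMC5 it was 0.40, and from ALDH1B1 to C9orf85, which takes in all 11 long-arm members, it was 0.14. The 2 expressed genes next to the short-arm end on the outer side, RUSC2 and UNC13B, were also higher. UNC13B, a synaptic vesicle priming protein, was at 30.8, 26.3, 29.98 and 27.2 CPM in parental and at 68.1, 61.1, 60.6 and 58.8 CPM in restored libraries (log2 fold change 1.12). RUSC2 was at 21.2, 17.4, 13.4 and 16.4 CPM in parental and at 41.8, 28.2, 25.6 and 23.4 CPM in restored libraries (log2 fold change 0.80). TLN1, set aside by the definition of the set, had a log2 fold change of 1.11 (SE 0.14).

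The 8 expressed genes just outside the interval, from DNAJB5 to RUSC2, had a median of 0.74, all above 0. The 25 expressed genes before them, from DNAJA1 to IL11RA, had a median of 0.20. The boundary at DNAJB5 was chosen after the values were seen. Genes past the long-arm end were mixed. GDA, a guanine deaminase, had a log2 fold change of 0.52 with overlapping groups and ZFAND5 one of 0.17. The next genes were ALDH1A1, at 0.83 with overlapping groups, and ANXA1, at 2.09 without overlap. Further out, NMRK1 was at -0.68, lower without overlap. The 15 genes from 72 to 80 Mb had a median of 0.15, with 11 above and 4 below 0. The windows at the short-arm and long-arm ends differ in size, so their medians are not compared like for like. The rest of the short arm (88 genes) had a median of 0.20 and the rest of the long arm (345 genes) one of -0.09, in values not tested against the members because the interval was chosen on this contrast.

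**Figure D4:**
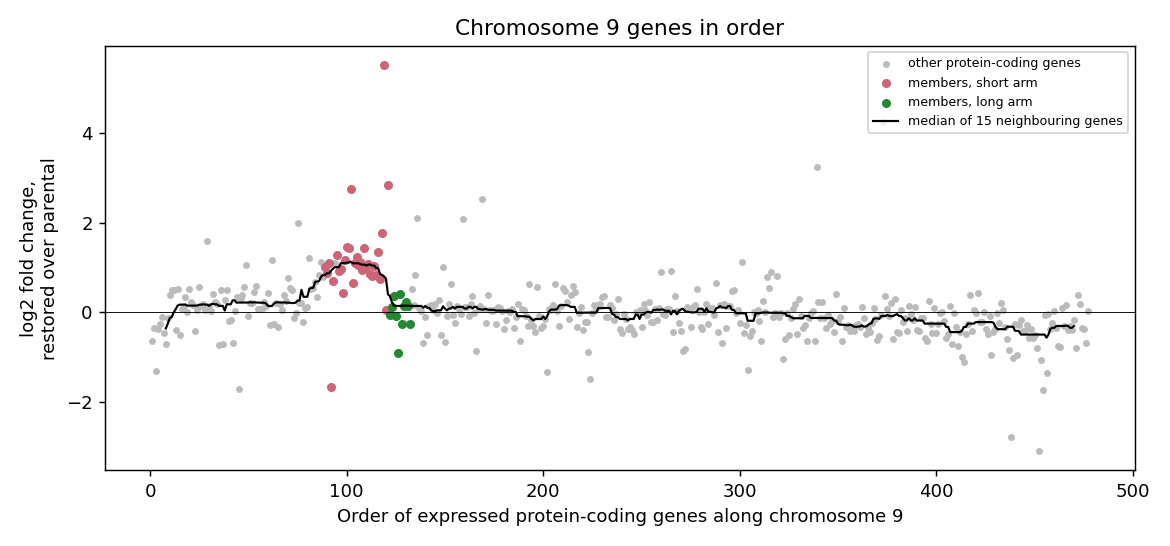
log2 fold change, restored over parental (vertical axis), of expressed protein-coding genes in their order along chromosome 9 (horizontal axis), with short-arm and long-arm members coloured and a line for the median of 15 neighbouring genes. The line is at 0.22 for the window from ACO1 to NOL6, climbs before the first member, reaches 1.13 among the short-arm members and is at 0.14 in the window that takes in the long-arm members.

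Non-coding genes of the interval were mixed. Of 10 non-coding rows at or above 1 CPM, the 6 on the short arm had a median of 0.33 on the log2 scale and the 4 on the long arm one of -0.12. EBLN3P, a pseudogene of viral nucleoprotein origin that lies beside ZCCHC7, was the only one of the 10 whose groups did not overlap. It was at 11.1, 15.4, 18.4 and 13.1 CPM in parental and at 48.5, 46.3, 45.8 and 62.7 CPM in restored libraries (log2 fold change 1.81, SE 0.18). The other short-arm rows were pseudogenes or unnamed transcripts, of which FRG1HP was at 0.26 and YBX1P10 at -0.13.

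Across the 32 short-arm genes, Spearman's rank correlation of the log2 fold change was -0.38 with the parental level, -0.08 with GC content and 0.11 with exonic length. Genes share libraries and are not independent. The parental level is also the denominator of the fold change. Genes under 1 CPM in parental libraries are members only if they are higher in restored libraries. A negative value is therefore partly built into the first correlation, which is no result about these genes. The genes close to silence in the parental libraries hold the high end of the first relation, where log2 fold changes also carry the most counting error. The interquartile range of short-arm log2 fold changes was 0.85 to 1.31, a width of 0.46. That width was 0.36 for the long-arm members, 0.48 for the rest of the long arm and 0.62 over all genes tested.

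Beside the members, 2 other chromosomes were described in the same libraries with the same minimum. The median log2 fold change was 0.42 over the 499 protein-coding genes of chromosome 5, with 0.34, 0.37, 0.42 and 0.56 in restored libraries 1 to 4. Over the 199 of chromosome 13 it was -0.23, with 0.03, -0.37, -0.33 and -0.18. The order of the restored libraries thus differed between the sets: library 1 was highest for the short-arm members of chromosome 9 and lowest for chromosome 5. These comparisons share all 8 libraries, and differences between the sets were not tested.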

How the data were processed

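The samples were mRNA sequencing libraries, 4 parental and 4 restored. The authors deposited raw read counts per gene without normalization, as the whole numbers and differing totals show. The submitters' processing notes name bcl2fastq, fastp 0.23.1, STAR 2.7.4 and GRCh38; the counting program, annotation and use of strand are not given in the sources used here. Groups and replicate numbers come from the sample titles, and 0 columns belonged to no sample.

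Of 58206 identifiers, 57943 were found in GENCODE release 29, which gave position, type and exons. In R 4.3.3, edgeR 4.0.16 kept genes by filterByExpr (minimum count 10, minimum total 15), scaled libraries by TMM and fitted the quasi-likelihood test without covariates (two-sided, Benjamini-Hochberg over 14289 genes, threshold 0.05). Standard errors were taken from the fold change and its F statistic. Per-library log2 ratios used a prior count of 2. Where every parental library held 3 counts or fewer, the fold is a lower bound against 3 counts per library. CPM of 3 counts ran from 0.107 to 0.267, and such limits cover counting error only. The fit was tested on simulated data.

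The members, groups and marker lists were chosen with earlier results of these data known. Named genes are the 3 members of highest mean CPM in each group, the 3 highest and 3 lowest log2 fold changes, and the 2 genes nearest each end and the CPM minimum, inside and outside; others were named after their values were seen. Single values of 3 members are not reported here; they remain in the counts and medians. The alternatives were other scalings (DESeq2 size factors, upper quartile, total counts), filters, CPM minima and interval edges, DESeq2 1.42.0, limma-voom (limma 3.58.1), the replicate number as a block, a threshold of 0.01, thinning to 11232951 counts, a GC and length offset, and leaving out each library.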

Additional observations from a re-analysis of the deposited data

Results flagged for a closer look

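In 86 sets of 4 library values (the members' CPM and the medians over members), the highest or lowest library was compared with the other 3 of its group by its gap relative to the range; chance picks out about 1 in 20 such sets. Parental library 1 stood apart in 4 of them. TESK1 was at 34.2 CPM there against 21.8 to 23.4 in the other parental libraries. KLF9 was at 8.79 CPM against 12.6 to 13.1 and ABHD17B was at 10.2 against 13.2 to 13.9. The median log2 ratio of the long-arm members in that library was -0.41 against 0.08 to 0.17. In the restored group, ARHGEF39 was at 42.2 CPM in library 1 against 21.6 to 24.2, and CNTNAP3B was at 28.8 CPM in library 2 against 19.8 to 21.2.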

How the results depend on the processing

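The short-arm median stayed between 0.94 and 1.13 under all 24 alternatives, and the median of all members between 0.80 and 1.01. The long-arm median, 0.13, was reversed by the GC and length offset (-0.030) and without restored library 3 (-0.038), with a leave-one-out range of -0.038 to 0.18; the cause was not tested. Restored values above all parental values were found in 27 to 30 members when a library was left out and in 14 of the 23 left by narrowing the interval by 1 Mb at each end, where fewer genes are counted; values below them were found in 0 to 2. Over all genes 2734 passed; an adjusted p under 0.01 gave 964, DESeq2's Wald test 3504 and total counts 2587 with 66.5% of them higher instead of 54.2%. Leaving out a library gave 1394 (without restored library 4) to 3525 (without parental library 1). The rest of the short arm, 0.20, was at 0.28 with total counts, 0.22 without a filter, 0.19 with DESeq2 size factors and with the Wald test, 0.18 after thinning, 0.12 with the GC and length offset and 0.17 to 0.21 without a library. The rest of the long arm was at -0.019 with total counts. The long-arm non-coding genes were at -0.041 with total counts, -0.17 after thinning and -0.16 to -0.049 without a library. Of 731 single-member values under alternatives, 711 stayed within the spread, 20 moved and 0 of the passing genes changed sign. Replicate numbers did not pair the libraries: correlations of same-numbered deviations were -0.06, 0.01, -0.03 and 0.23. With a replicate block 2034 genes passed, and the medians were 0.92 for all members, 1.07 for the short arm and 0.11 for the long arm. Depth limits the near-silent genes, where 3 counts equal up to 0.267 CPM.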
